A study of Homo sapiens with 4 samples.

Results

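The 10 enzymes described here build purine and pyrimidine nucleotides from small precursors. They were taken by gene symbol from a fixed list (PPAT, GART, PFAS, PAICS, ADSL, ATIC, IMPDH1, IMPDH2, CAD and DHODH), and each symbol matched 1 of the 61806 genes in the authors' table. RNA was measured in human JJ012 chondrosarcoma cells and human 143B osteosarcoma cells that were kept in suspension, where detached cells are prone to die by anoikis. Each line gave 1 untreated control library and 1 library after melatonin (1 mM, 72 h), so every value below rests on 1 library and no spread between cultures could be measured. Both arms of a line were detached, neither line carries a further treatment in the labels, and each tumor type is represented by a single established line. The libraries were made from poly(A) RNA of whole cultures, in which a change in the cells present and a change in RNA per cell cannot be told apart.

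Purine rings are assembled step by step on a ribose phosphate. PPAT makes the first committed step, moving nitrogen from glutamine onto PRPP. GART, PFAS, PAICS, ADSL and ATIC carry out the following steps up to IMP, the first complete purine, and GART and ATIC add carbons from 10-formyl-THF. IMPDH1 and IMPDH2 turn IMP towards GMP and limit the rate of guanine nucleotide synthesis. Pyrimidine rings are made first and joined to ribose later: CAD starts the pathway from glutamine, and DHODH, which sits in the inner mitochondrial membrane, oxidises dihydroorotate to orotate. Proliferating tumor cells depend on these enzymes, and glutamine supplies nitrogen to PPAT, PFAS and CAD.

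Library depth lay between 15889564 and 19218343 counts. Levels are given in FPKM, read counts divided by exonic gene length and by the library total. Changes are given as the log2 fold change of FPKM with 1 FPKM added to each value, which understates changes of weakly expressed genes, and a gene was called higher or lower at 0.58 or more when it reached 1 FPKM in at least 1 of the 2 libraries. For single genes the ratio of CPM, counts scaled to the library total alone, is given with its exact Clopper-Pearson 95% interval. The intervals cover counting error only, since PCR copies are not independent molecules, and no p-value is given. Mitochondrially encoded genes took 6.78% of the JJ012 control counts and 4.35% after melatonin, and 1.63% and 2.46% in 143B. Of the markers of cartilage, COL2A1 and ACAN had at most 19 counts in any library while SOX9 lay between 6.16 and 15.48 FPKM and COL11A1 had 22.92 FPKM in untreated JJ012 and 0 counts in 143B. Of the bone markers, SP7 had at most 8 counts and RUNX2 lay between 2.59 and 4.28 FPKM, while in untreated JJ012 and 143B SPARC had 124.78 and 30.23 FPKM, SPP1 79.39 and 0.40, COL1A2 12.48 and 0, and COL1A1 10.92 and 0.49. In JJ012 control cells 2 of 9 cartilage markers, 5 of 9 bone markers, 2 of 3 leukocyte, 2 of 4 epithelial and 1 of 3 endothelial markers reached 1 FPKM, and in 143B control cells these were 1, 3, 0, 3 and 1. In JJ012 all 5 marker lists had a lower summed level after melatonin: FPKM went from 39.74 to 9.98 for cartilage, 232.0 to 125.39 for bone and 13.17 to 5.45 for leukocyte markers, and the part of this in the enzyme values was not tested. In 143B these sums were 16.92 and 13.41, 37.20 and 31.13, and 0.83 and 1.20.

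In JJ012, melatonin was followed by a higher level of the enzyme that opens purine synthesis and of the enzyme with 3 activities in its early steps: PPAT and GART were called higher, and none of the 10 enzymes was called lower. These 2 of 10 stand against 19.6% of all 15794 tested genes called higher and 18.6% called lower, a share near the background. Among protein-coding genes alone, 17.8% were called higher. The 10 enzymes had a median log2 fold change of 0.19, with 0.01 for all tested genes. With FPKM rescaled to TPM, the median of all tested genes moved to 0.27 and 68.8% of the called genes were higher, against 51.4% with FPKM. On that scale 4 enzymes were called higher, PFAS and CAD being added. In 143B, no enzyme was called in either direction, with 6.09% of 14135 tested genes called higher and 6.65% lower. The median of the 10 enzymes was 0.25 in 143B, with 0.03 for all tested genes. Values above 0 were found for 8 of the 10 enzymes in 143B and 7 of the 10 in JJ012. The share of all tested genes above 0 was not counted, so nothing is read from these numbers.

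PPAT (ENSG00000128059, minus strand of chromosome 4, 56393362 to 56435615) had 4.05 FPKM in the JJ012 control (423 counts) and 10.65 FPKM after melatonin (935 counts). In 143B it had 22.10 FPKM in the control (1910 counts) and 23.06 FPKM after melatonin (2153 counts). The JJ012 control was therefore the low library of the 4, and melatonin-treated JJ012 still lay below both 143B libraries. By CPM the change was 2.63-fold in JJ012 (95% interval 2.34 to 2.96) and 1.04-fold in 143B (0.981 to 1.11), the latter within counting error. The log2 ratio in JJ012 exceeded that in 143B by 1.33 (1.15 to 1.52).

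PAICS, which joins the carbon dioxide and aspartate steps of purine synthesis in 1 protein, is the neighbour of PPAT on the plus strand of chromosome 4 (ENSG00000128050, 56435741 to 56464578). By the authors' gene positions the pair starts head to head, with 125 bases between them. This stretch is shown because PPAT and PAICS share it and yet differed in their values after melatonin. It lies at chr4:56435616-56435740 and is printed on the plus strand from RefSeq's GRCh38.p14, the strand on which it leads into PAICS. Capitals mark GGGCGG, the core of the GC box, searched on both strands.
PPAT-PAICS interval: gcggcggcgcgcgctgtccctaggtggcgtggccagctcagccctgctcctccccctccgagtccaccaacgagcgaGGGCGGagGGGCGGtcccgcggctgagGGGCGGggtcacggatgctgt
The interval holds 3 such cores and is 76% G and C. Of all 35116 promoter windows in the RefSeq table, which are longer and reach from before a gene's start to just inside it, 45.0% hold at least 1 core.

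PAICS had 15.20 FPKM in the JJ012 control and 14.06 FPKM after melatonin (2195 and 1706 counts), and 56.62 and 48.21 FPKM in 143B (6762 and 6220 counts). The CPM ratio was 0.925 in JJ012 (0.868 to 0.986) and 0.852 in 143B (0.823 to 0.881). Neither value reached the threshold, and the JJ012 log2 fold change of -0.11 became 0.16 with TPM. The ratio of PPAT to PAICS within a library does not depend on how libraries are scaled. It was 0.266 in the JJ012 control (0.239 to 0.296) and 0.757 after melatonin (0.699 to 0.821), and 0.390 and 0.478 in 143B. On the log2 scale it moved by 1.51 in JJ012 (1.32 to 1.70) and by 0.29 in 143B (0.19 to 0.40), so that PPAT gained on its neighbour in both lines, by a difference of 1.21 more in JJ012 (1.00 to 1.43).

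GART (ENSG00000159131, minus strand of chromosome 21, 33503931 to 33543491) had the other large value. It had 13.06 FPKM in the JJ012 control (1946 counts) and 32.70 FPKM after melatonin (4092 counts), against 12.74 and 14.42 FPKM in 143B (1569 and 1918 counts). The treated JJ012 library stood above the other 3, which lay close together. By CPM this was 2.50-fold in JJ012 (2.37 to 2.64) and 1.13-fold in 143B (1.06 to 1.21), a difference of 1.15 between the log2 ratios (1.02 to 1.27). GART shares 454 bases at its start with SON on the other strand, 1.15% of its span, and SON itself had 2706 and 4590 counts in the JJ012 libraries. The strand setting of the counting is not given in the sources used here, and the part of shared reads in the GART value was not tested.

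ATIC, which like GART takes a carbon from 10-formyl-THF and completes IMP, had 22.14 and 24.65 FPKM in JJ012 (1612 and 1508 counts) and 10.12 and 12.84 FPKM in 143B (609 and 835 counts). Its log2 fold change was 0.15 in JJ012 and 0.32 in 143B, below the threshold in both. The ratio of GART to ATIC within a library was 0.590 in untreated JJ012 and 1.33 after melatonin, a log2 change of 1.17 (1.04 to 1.30). In 143B it was 1.26 and 1.12, a log2 change of -0.17 (-0.34 to 0.01), so the 2 folate-using enzymes of the purine pathway parted in JJ012 and not measurably in 143B.

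PFAS, the glutamine amidotransferase of the middle steps, had 2.29 and 3.03 FPKM in JJ012 (285 and 317 counts) and 1.95 and 3.06 FPKM in 143B (201 and 340 counts). By CPM it was 1.32-fold higher after melatonin in JJ012 (1.12 to 1.56) and 1.57-fold higher in 143B (1.31 to 1.87), and the intervals of the lines overlapped. Its start overlaps CTC1 on the other strand over 441 bases. ADSL, which cleaves fumarate from intermediates at a pair of steps, had 2.91 and 3.44 FPKM in JJ012 (677 and 673 counts) and 1.27 and 1.72 FPKM in 143B (245 and 358 counts). The ADSL level is uncertain: 99.8% of its span is covered by ENSG00000284431 on the same strand, and 13.7% of the stretches of 100 bases in its GENCODE 29 transcripts also occur in transcripts of another gene. For the other 9 enzymes this share was at most 1.99%, with PPAT the highest.

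By FPKM and CPM the single IMPDH genes differed between the cell lines after melatonin, while the ratio of the pair shifted in the same direction in both. IMPDH1 (ENSG00000106348) had 23.22 and 17.56 FPKM in JJ012 (1634 and 1038 counts) and 40.75 and 40.62 FPKM in 143B (2371 and 2553 counts). IMPDH2 (ENSG00000178035) had 27.16 FPKM in both JJ012 libraries (2674 and 2246 counts), and 46.99 and 64.91 FPKM in 143B (3825 and 5708 counts). Thus IMPDH1 had the lower value after melatonin in JJ012, 0.756-fold by CPM (0.699 to 0.818), and IMPDH2 the higher value in 143B, 1.38-fold (1.33 to 1.44), with the partner in each line within its counting error. No value of the pair reached the threshold. In JJ012 the log2 fold changes of IMPDH1 and IMPDH2 were -0.38 and 0 with FPKM, but -0.13 and 0.27 with TPM. In 143B that of IMPDH2 was 0.46 with FPKM and 0.41 with TPM. Which gene of the pair moved in JJ012 therefore depended on how libraries are scaled, whereas their ratio within a library does not. The ratio of IMPDH1 to IMPDH2 was 0.855 in untreated JJ012 and 0.647 after melatonin. In 143B it was 0.867 and 0.626, so both controls and both treated libraries lay close together. The log2 change was -0.40 in JJ012 (-0.54 to -0.26) and -0.47 in 143B (-0.57 to -0.37), and the difference between the lines, 0.07, had an interval of -0.10 to 0.24. Transcripts of IMPDH1 shared 0.126% of their stretches of 100 bases with other genes and those of IMPDH2 0%.

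Of the pyrimidine enzymes, CAD (ENSG00000084774, chromosome 2) had 2.74 and 4.11 FPKM in JJ012 (444 and 560 counts) and 3.03 and 4.77 FPKM in 143B (407 and 692 counts). The log2 ratio of CPM was 0.59 (0.40 to 0.77) in JJ012 and 0.65 (0.48 to 0.83) in 143B, both past the threshold. With 1 FPKM added, the log2 fold changes of 0.45 and 0.52 fell short of it. CAD was the one enzyme of the 10 past 0.58 in both lines by CPM, and its JJ012 value lay close to that threshold. On the CPM scale 3959 of 15794 tested genes were called higher in JJ012 and 1588 of 14135 in 143B. The share of genes past 0.58 in both lines was not counted. DHODH had the lowest level of the 10 in every library, with 1.08 and 1.37 FPKM in JJ012 (144 and 153 counts) and 1.24 and 1.63 FPKM in 143B (136 and 194 counts). Its CPM ratio was 1.26 in JJ012 (1.00 to 1.60) and 1.32 in 143B (1.06 to 1.66), and the difference between the lines was within counting error. UMPS, which completes UMP after DHODH, had 2.04 and 3.46 FPKM in JJ012 (1.70-fold by CPM, 1.46 to 1.98) and 2.31 and 3.17 FPKM in 143B (1.37-fold, 1.17 to 1.60). All 3 pyrimidine genes therefore had higher values after melatonin in both lines, on the CPM scale, without reaching the threshold on the FPKM scale. The share of all genes higher in both lines was not counted. In JJ012 longer genes tended to have higher values, as described below for CAD and DHODH.

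**Figure D1:**
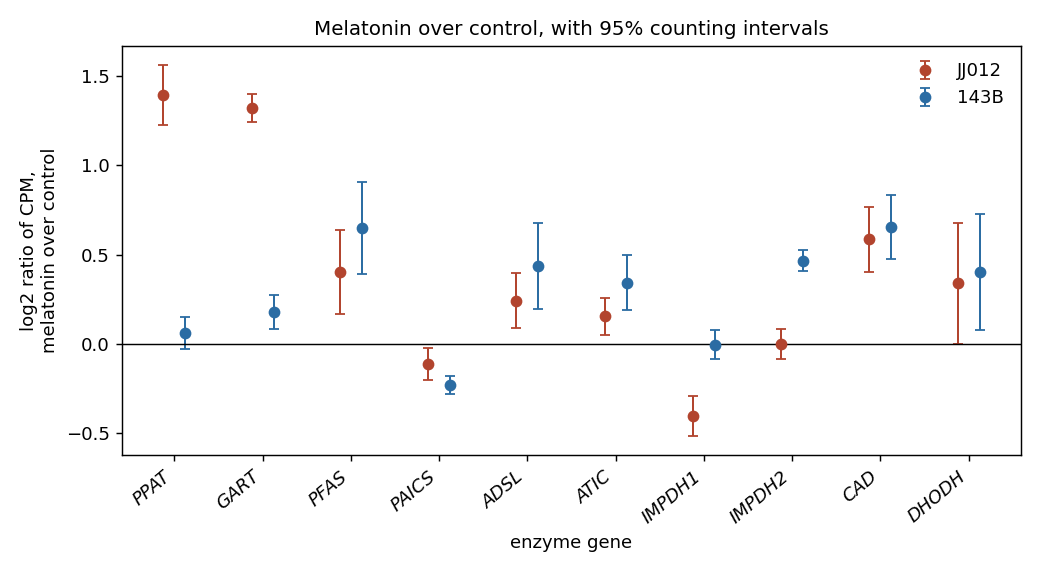
Log2 ratio of CPM, melatonin over control, for each enzyme in JJ012 (red) and 143B (blue), with exact 95% counting intervals from 1 library per condition. PPAT and GART stand at 1.40 and 1.32 in JJ012 and at 0.06 and 0.18 in 143B. The points of CAD and DHODH lie closest together in the lines (JJ012 less 143B, -0.07 and -0.06).

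Levels per length differed widely among enzymes of the same pathway. In the JJ012 control the order was IMPDH2, IMPDH1, ATIC, PAICS, GART, PPAT, ADSL, CAD, PFAS and DHODH, from 27.16 down to 1.08 FPKM. The counting intervals of IMPDH1 and ATIC, of ADSL and CAD, and of CAD and PFAS overlapped, and those of the other neighbours did not. After melatonin GART headed the order in JJ012. In the 143B control PAICS was highest, followed by IMPDH2, IMPDH1, PPAT, GART, ATIC, CAD, PFAS, ADSL and DHODH, with overlap between ADSL and DHODH alone. After melatonin in 143B, IMPDH2 and PAICS exchanged places. Summed over the 10 enzymes, 626 CPM became 819 CPM in JJ012 and 1135 CPM became 1222 CPM in 143B. The sums weigh each enzyme by its counts and do not show a rise common to all. GART had 1946 of the 12034 summed counts in the JJ012 control and 4092 of 13228 after melatonin. PAICS, IMPDH1 and IMPDH2 were not higher in JJ012 (CPM ratios 0.925, 0.756 and 1.00). In 143B IMPDH2 had 3825 of 18035 counts and then 5708 of 20971, while PAICS was lower (CPM ratio 0.852). Their exonic lengths combine all annotated exons, so the level of a gene with many rarely used exons is understated.

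**Figure D2:**
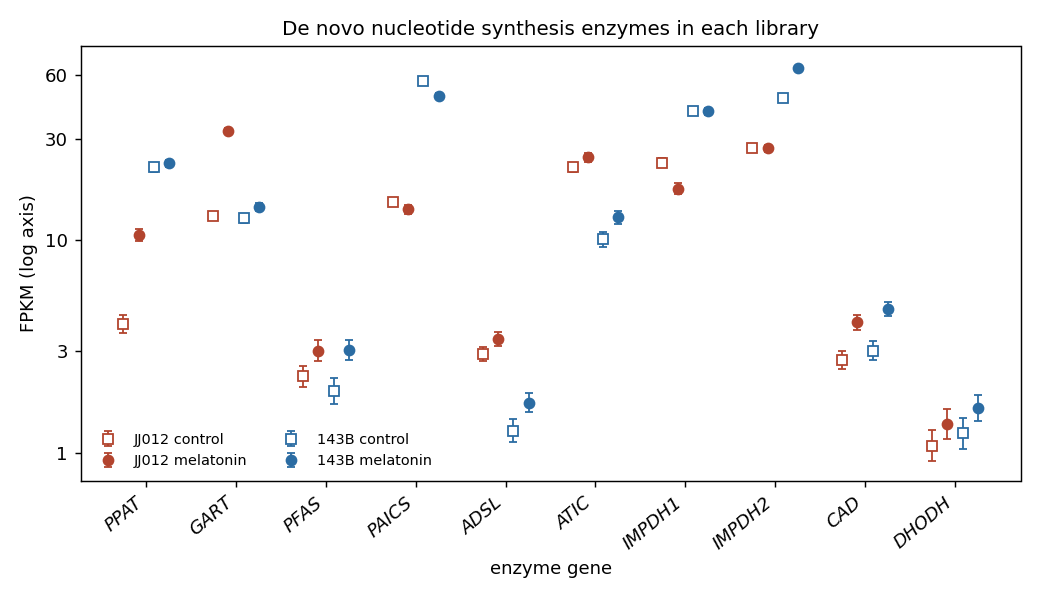
FPKM of each enzyme (log axis) in the 4 libraries, open squares for controls and filled circles for melatonin, red for JJ012 and blue for 143B, with exact 95% Poisson intervals of the counts. PPAT runs from 4.05 FPKM in the JJ012 control to 23.06 FPKM in treated 143B, and DHODH stays between 1.08 and 1.63 FPKM.

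The untreated lines differed in 6 of the 10 enzymes. ADSL and ATIC were called higher in JJ012, and PPAT, PAICS, IMPDH1 and IMPDH2 lower. Over all 16929 tested genes, 41.3% were called higher in JJ012 and 27.4% lower, so a difference between these lines was common. The median of all tested genes was 0.29 on this scale and -0.01 with TPM, and the share of called genes that were higher in JJ012 went from 60.1% to 49.3%. PPAT was 5.46-fold lower in JJ012 by CPM (4.91 to 6.08) and its neighbour PAICS 3.73-fold lower (3.55 to 3.91). IMPDH1 was 1.76-fold lower and IMPDH2 1.73-fold lower, with overlapping intervals (1.65 to 1.87 and 1.65 to 1.82). ATIC was 2.19-fold higher in JJ012 (1.99 to 2.41) and ADSL 2.28-fold higher (1.97 to 2.66). The ADSL call was lost when values were centred on the median gene (0.50) or scaled by TMM (0.55). By CPM the intervals of GART, PFAS, CAD and DHODH included equal levels, but this depended on how libraries are scaled. With TPM their log2 fold changes were -0.34, -0.13, -0.49 and -0.48, against 0.03, 0.16, -0.11 and -0.11 with FPKM. This comparison sets a chondrosarcoma line against an osteosarcoma line, and tumor type and line cannot be told apart. It shares its controls with both melatonin comparisons.

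In JJ012 the change of a gene was related to its exonic length, with a Spearman correlation of 0.24 across all tested genes, which are not independent replicates; in 143B it was -0.01. Of the 10 enzymes, 8 were longer than the median tested gene of JJ012 (4068 bases). Genes as long as GART (7751 bases) had a running median of 0.26 and genes as long as PPAT (5439 bases) one of 0.08. With this trend removed, GART kept 1.00 and PPAT 1.13, both past the threshold. CAD went from 0.45 to 0.21, DHODH from 0.19 to 0.03, and ADSL, the longest at 12109 bases, from 0.18 to -0.17.

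**Figure D3:**
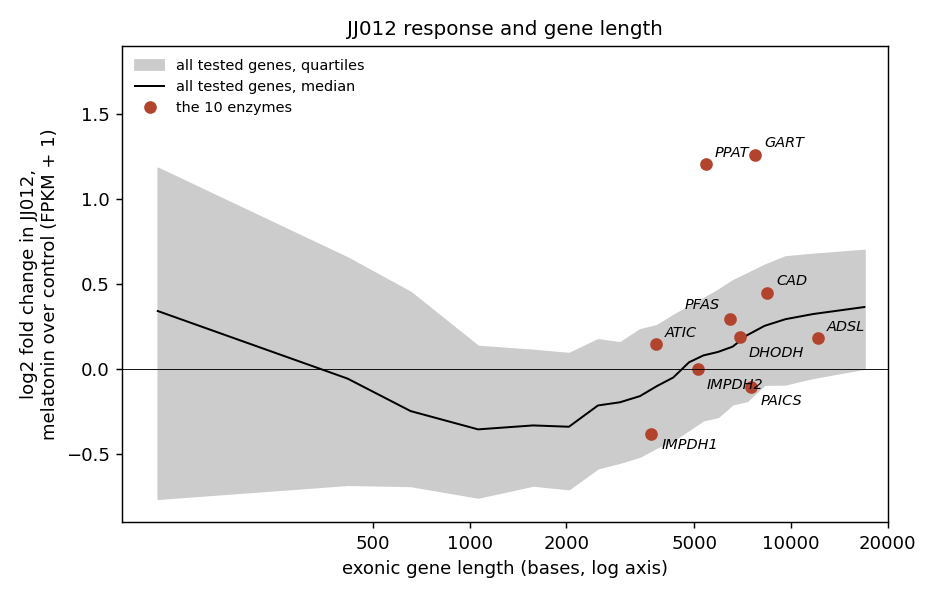
Log2 fold change in JJ012 (FPKM with 1 added) against exonic gene length (log axis), with the median and quartiles of all tested genes in 20 bins of length and the 10 enzymes as points. GART and PPAT lie above the upper quartile at their lengths, and the other 8 within the quartiles or at their edge.

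Of the genes named from the wider lists, those outside the naming rule (DUT, SAMHD1, GUK1, NME4, DGUOK, UCK2, ADSS1, RPE, PGD, ALDH1L2, MTHFD1, NT5C3A, SLC29A2 in JJ012, AURKA, AURKB, MCM6, MNT and MYCN) were chosen after their values were seen. The counts of these lists are to be read against the shares of all tested genes given above (19.6% higher and 18.6% lower in JJ012, 6.09% and 6.65% in 143B), and nothing is read from a list near them. Ranges given with a count cover the alternative settings at the same threshold. Of the 6 other genes that lead from IMP and carbamoyl aspartate to AMP, GMP, UMP and CTP, 2 were called higher (1 to 4 over the settings) and 1 lower in JJ012, with a median of 0.52, and none in 143B. ADSS2, which takes IMP towards AMP, rose from 16.91 to 30.84 FPKM in JJ012 (1.82-fold by CPM, 1.69 to 1.97), and its paralog ADSS1 fell from 1.92 to 0.55 FPKM (211 and 51 counts). GMPS, the glutamine-using step after IMPDH, had 7.94 and 11.53 FPKM in JJ012 and 15.50 and 14.56 FPKM in 143B. CTPS1, which makes CTP with nitrogen from glutamine, rose from 2.10 to 3.67 FPKM in JJ012 and had 0.97 and 1.31 FPKM in 143B. Among the 6 glutamine amidotransferases of nucleotide synthesis (PPAT, PFAS, CAD, GMPS, CTPS1 and CTPS2), PPAT and CTPS1 were called higher in JJ012 and none lower, with a median of 0.47. CTPS1 lay at the threshold (0.59), and the count was 5 with TPM and 1 with DESeq2 size factors, with the length trend removed or with a filter of 5 FPKM. In 143B none was called (2 with 0.1 FPKM added or CPM) and the median was 0.14.

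The supply of PRPP showed no common direction in JJ012, where 2 of 10 genes were called higher and 1 lower, with a median of -0.04. RPIA, of the pentose phosphate pathway, rose from 4.48 to 8.20 FPKM, RPE from 16.34 to 24.97 FPKM, and TALDO1 fell from 32.67 to 20.43 FPKM. PRPS1 and PRPS2, which make PRPP itself, had log2 fold changes of 0.09 and -0.13 in JJ012 and 0.13 and -0.04 in 143B, all within counting error. In 143B, 2 of 10 genes were called higher, among them PGD, of the pentose phosphate pathway, which rose from 27.51 to 42.81 FPKM. Of the 9 genes that supply 10-formyl-THF, MTHFD1 (2.02 to 4.24 FPKM) and ALDH1L2 (1.98 to 3.82 FPKM) were called higher in JJ012 and none lower (median 0.27, 0 to 5 higher over the settings), and none of the 6 tested was called in 143B (median 0.15).

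Of the 14 tested salvage enzymes, which rebuild nucleotides from bases and nucleosides, 2 were called higher and 3 lower in JJ012, close to the shares of all genes, with a median of -0.06. UPP1, which splits uridine, rose from 11.01 to 33.28 FPKM (3.02-fold by CPM, 2.81 to 3.26), and UCK2, a uridine and cytidine kinase, from 3.00 to 7.04 FPKM. TK1, the thymidine kinase of dividing cells, fell from 9.50 to 2.55 FPKM (337 and 76 counts, 3.72-fold lower, 2.90 to 4.84). HPRT1, which salvages guanine and hypoxanthine, had 23.95 and 24.52 FPKM in JJ012 and 18.00 and 17.82 FPKM in 143B, within counting error in both. APRT, the salvage enzyme for adenine, fell from 19.96 to 12.93 FPKM in JJ012 and had 19.24 and 27.12 FPKM in 143B. DGUOK, the mitochondrial deoxyguanosine kinase, fell from 39.95 to 20.44 FPKM in JJ012. No salvage gene was called in 143B, where 14 were tested. MTAP of this list and CDA of the breakdown list were also chosen after their values were seen. MTAP, which returns adenine from methylthioadenosine to salvage, had 0 counts in both 143B libraries and 22 and 60 counts in JJ012. CDA, cytidine deaminase, had 0 counts in both 143B libraries and 729 and 386 counts in JJ012, where it was called lower after melatonin. Its JJ012 control level was at least 201-fold higher than a floor of 3 counts in the 143B control library.

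The deoxynucleotide list holds genes that make deoxynucleotides for DNA and also SAMHD1, which breaks them down. Of its 9 tested genes, 3 were called lower in JJ012 and none higher (1 to 4 lower over the settings, fewest with TPM or TMM). The JJ012 median of the list, -0.38, was the value of SAMHD1 itself. In 143B, where SAMHD1 was not tested, 1 of 8 was called lower (median -0.05). RRM2, the cell-cycle subunit of ribonucleotide reductase, had 192 counts in untreated JJ012 and 58 with melatonin (1.09 and 0.39 FPKM), 2.78-fold lower by CPM (2.06 to 3.80). In the 143B control it had 684 counts and after melatonin 221 (4.70 and 1.41 FPKM), which was 3.34-fold lower (2.87 to 3.91). TYMS, thymidylate synthase, had 5.01 and 3.07 FPKM in JJ012 and 11.83 and 10.06 FPKM in 143B. DTYMK fell from 9.48 to 5.45 FPKM and DUT from 20.92 to 13.25 FPKM in JJ012. Of 15 proliferation genes, 3 were called lower and none higher in JJ012, and 7 lower and 2 higher in 143B. CCNB1, a mitotic cyclin, fell from 18.35 to 8.43 FPKM in JJ012, with AURKA from 6.79 to 3.36 and AURKB from 4.83 to 2.82 FPKM, and in 143B TOP2A fell from 12.18 to 4.76 FPKM while PCNA rose from 7.09 to 11.50 FPKM and MCM6 from 6.13 to 9.75 FPKM. RRM2, CCNB1, AURKA (8.75 to 5.09 FPKM in 143B) and AURKB (5.14 to 2.44 FPKM in 143B) were called lower in both lines. The share of all tested genes called lower in both lines was not counted. The JJ012 calls of RRM2 (-0.59) and AURKB (-0.61) lay close to the threshold. With a filter of 5 FPKM neither gene was tested in JJ012, and RRM2 was not tested in 143B.

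Of 10 tested nucleotide kinases, 4 were called lower and none higher in JJ012 (median -0.47, 1 lower with TPM), among them NME3 (45.92 to 20.60 FPKM), GUK1 (55.94 to 31.83) and NME4 (38.42 to 23.32). In 143B NME3 was called higher (median of the list -0.01). With the length trend of JJ012 removed, NME3, a short gene, went from -1.12 to -0.83. Of the genes of nucleotide breakdown, 2 of 9 were called higher and 2 lower in JJ012 (median -0.44), and 1 of 8 higher in 143B (median 0.03). NT5C2, a cytosolic nucleotidase, rose from 4.27 to 8.91 FPKM, NT5C3A from 6.41 to 10.82 FPKM, and DPYD, which opens pyrimidine breakdown, fell from 5.63 to 2.44 FPKM in JJ012. NT5E rose from 20.53 to 33.69 FPKM in 143B and had at most 12 counts in JJ012. Of 5 tested nucleoside transporters in JJ012, 2 were called lower, SLC29A2 and SLC29A4, and 1 of 3 was called higher in 143B, SLC29A2. SLC29A4 fell from 20.64 to 11.46 FPKM in JJ012. Of the genes named by the rule outside the 10 enzymes, NME3, NT5C2, SLC29A4 and TYMS each overlap another gene with at least 100 counts on the other strand.

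**Figure D4:**
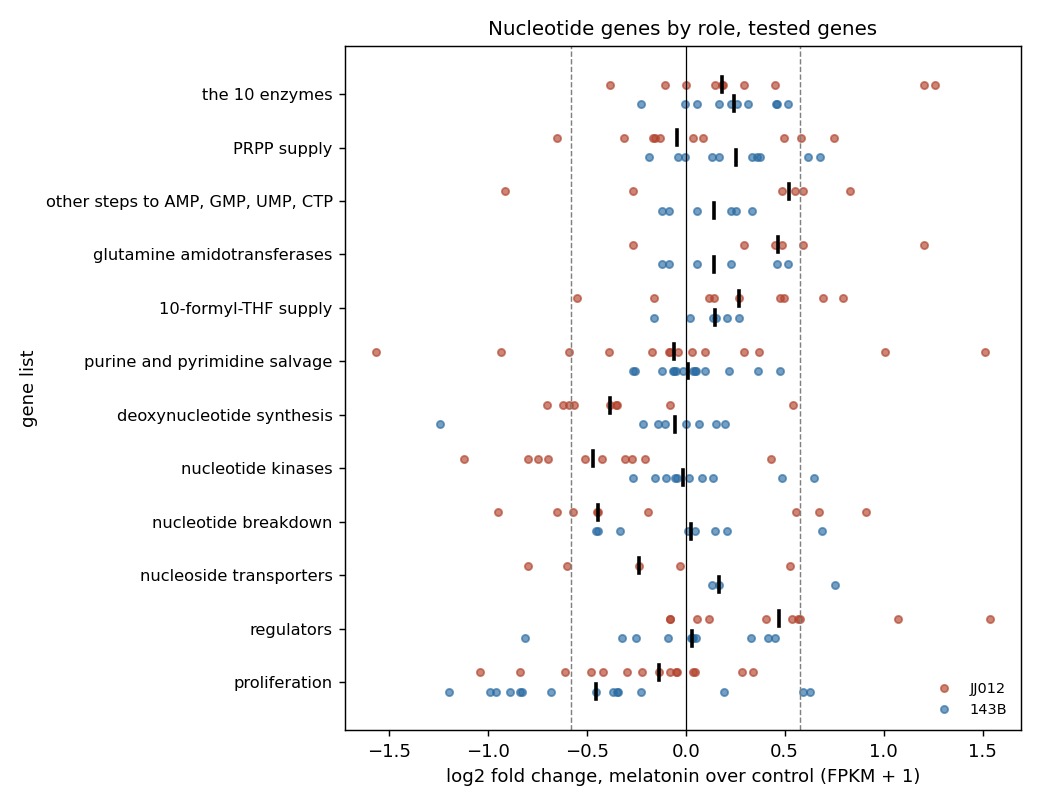
Log2 fold changes of tested genes, melatonin over control (FPKM with 1 added), by role in nucleotide metabolism, JJ012 in red and 143B in blue, with black bars for medians and dashed lines at 0.58 in both directions. The kinase, breakdown and deoxynucleotide lists have the lowest JJ012 medians (-0.47, -0.44 and -0.38). Those of transporters (-0.24), proliferation (-0.14), salvage (-0.06) and PRPP supply (-0.04) also lie below 0, and the 10 enzymes have 0.19.

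Among regulators, 2 of the 10 tested in JJ012 were called higher and none lower, MYC and MNT (6.24 to 14.23 FPKM). The count was 5 with 0.1 FPKM added, CPM or TMM and 6 with TPM. Of 11 in 143B, 1 was called lower, MYCN (2.49 to 0.99 FPKM). MYC, a transcription factor known to bind the E-box CACGTG and to raise nucleotide synthesis genes, rose from 2.86 to 10.20 FPKM in JJ012 (252 and 755 counts, 3.57-fold by CPM, 3.09 to 4.13). In 143B it had 1.06 and 1.75 FPKM (77 and 138 counts, 1.66-fold, 1.25 to 2.22). ATF4, a transcription factor of the amino acid response, had 135.49 and 202.61 FPKM in JJ012, a log2 fold change of 0.58 that lay just under the threshold before rounding, and 345.50 and 352.52 FPKM in 143B. What MYC or ATF4 contributed to any enzyme was not tested.

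RefSeq promoter windows were found for 8 of the 10 enzymes, and ADSL and IMPDH2 were not matched. CACGTG, which reads the same on both strands, occurred in the windows of 4 enzymes (ATIC, PPAT, PAICS and DHODH), and in those of 8.78% of all 27305 genes of the table. PPAT and PAICS hold the same site. The sites are shown with up to 10 bases on each side, in the direction of the gene and with the E-box in capitals, to set the sequences beside the values of their genes.
ATIC upstream (chr2:215312003-215312028): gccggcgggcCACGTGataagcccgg
ATIC downstream (chr2:215312078-215312103): cctacctgcgCACGTGgtgccgccgc
PPAT (chr4:56435782-56435807): cggagatttcCACGTGcagcaaatac
DHODH (chr16:72008575-72008600): cgctactgcgCACGTGcacccaacca
Of these genes PPAT was called higher in JJ012, and ATIC, PAICS and DHODH were not called in either line. GART, the other gene called higher, had no CACGTG in its windows. A match describes these letters and shows no binding.

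**Figure D5:**
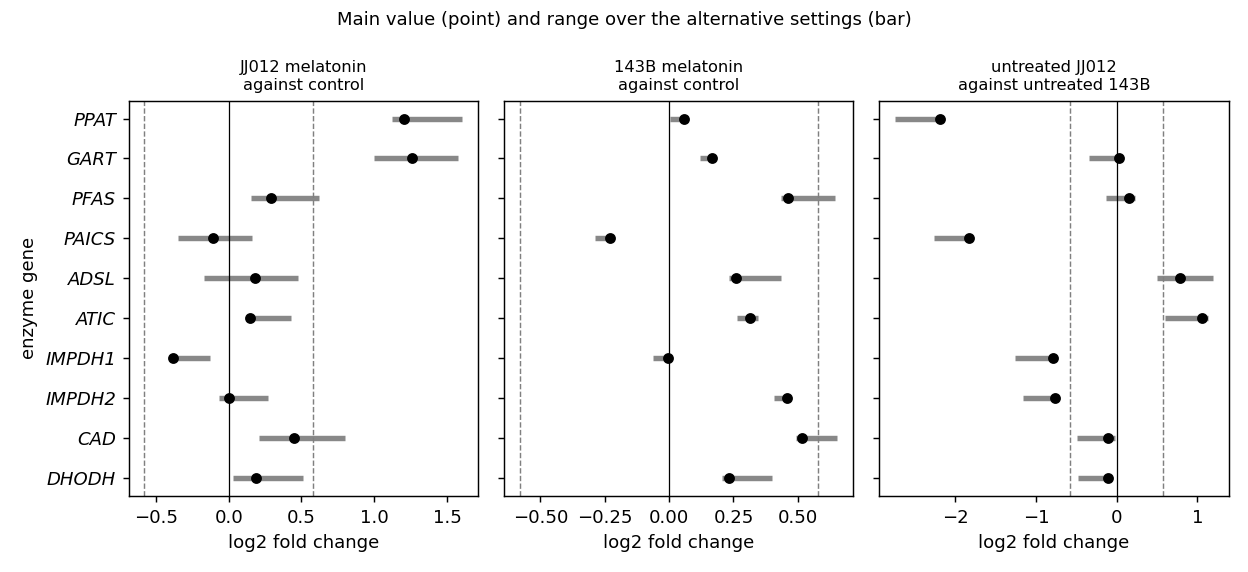
Log2 fold change of each enzyme with 1 FPKM added (points) and its range over the alternative settings (lines) in the melatonin comparisons and in untreated JJ012 over 143B, with dashed lines at 0.58 in both directions. In JJ012, PPAT spans 1.13 to 1.60 and GART 1.00 to 1.58, while the ranges of PFAS and CAD cross the threshold in JJ012 (0.15 to 0.62 and 0.21 to 0.80) and in 143B (0.43 to 0.65 and 0.49 to 0.65), and that of ADSL does so between untreated lines (0.50 to 1.19).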

How the data were processed

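The authors deposited 1 table for 4 libraries with whole-number counts per gene and FPKM. Per the submitters' processing notes, reads were handled with cutadapt 1.9.1, HISAT2 2.2.1 and HTSeq 0.6.1 on hg38, and DESeq2 was named. Strand setting, counting mode and annotation release are not given in the sources used here. The deposited FPKM equal the deposited counts over exonic length and library total within rounding in 100% of genes. Columns were matched by cell line, and the suffix T was read as melatonin-treated, since each line has 1 treated sample.

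The members and gene lists were chosen with earlier results of these data known. Genes outside the 10 enzymes were named as the largest called rise and fall of each list and line among genes with at least 5 FPKM, plus a fixed set (UMPS, GMPS, CTPS1, PRPS1, PRPS2, TYMS, RRM2, HPRT1, APRT, MYC and ATF4). Without replicates no test was run, and edgeR served for TMM factors and DESeq2 for size factors. Intervals of differences between ratios used the delta method. The lists held PRPP supply, later steps, amidotransferases, 10-formyl-THF supply, salvage, deoxynucleotides, kinases, breakdown, transporters, regulators, proliferation and cell type markers. Of gene IDs shared with GENCODE 29, 89.5% had the same start or end. The floor of 3 counts lay between 0.156 and 0.189 CPM. Procedures were tested on simulated data. Python 3.11.15, numpy 2.4.6, pandas 2.3.3, scipy 1.17.1, matplotlib 3.10.9, R 4.3.3, edgeR 4.0.16 and DESeq2 1.42.0 were used. Some genes of the lists are counted but not reported here by name.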

Additional observations from a re-analysis of the deposited data

Results flagged for a closer look

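Among the genes of the nucleotide lists, NME3 and SLC29A2 passed the threshold in opposite directions in the cell lines, and this difference was not tested. NME3, a nucleoside diphosphate kinase, fell from 45.92 to 20.60 FPKM in JJ012 and rose from 5.98 to 9.94 FPKM in 143B, so that its log2 fold change in JJ012 less that in 143B was -1.77. SLC29A2, a nucleoside transporter, had 72 counts in untreated JJ012 and 25 with melatonin (1.38 and 0.57 FPKM), a fall, against 141 and 289 counts in the 143B libraries (3.26 and 6.19 FPKM), a rise, with a difference of -1.36. The JJ012 call of SLC29A2 was close to the threshold (-0.60) and was lost with TMM (-0.53), DESeq2 size factors (-0.57) or the length trend removed (-0.36), and with a filter of 5 FPKM it was not tested. The calls of NME3 held in both lines under every setting at this threshold, from -1.16 to -0.83 in JJ012 and from 0.60 to 0.73 in 143B. None of the 10 enzymes was called in 143B, so none could be called in opposite directions.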

How the results depend on the processing

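With 1 library per condition, no replicate could be left out, and the spread between cultures stays unmeasured. No paired analysis was possible because each condition has 1 library. Of the 57 checks of enzyme counts and medians under other processing choices, 45 moved little and 12 moved. Testing without a filter is counted among them but could move no enzyme value, since all 10 enzymes passed the filter. A filter of 5 FPKM likewise left the values of the enzymes it kept. Reversal was checked for the single enzyme values that were called and for differences between the lines whose interval excluded 0, and none changed sign. Of the further checks, 67 of the counts in the wider lists moved and 263 did not, as did 58 and 200 of the single enzyme values. The 10 differences between the lines moved little. In JJ012 the genes called higher ranged from 2 to 6 among regulators and from 0 to 5 in 10-formyl-THF supply, and those called lower from 1 to 5 among kinases and from 1 to 4 in deoxynucleotide synthesis. In JJ012 the number of enzymes called rose from 2 to 4 and their median from 0.19 to 0.49 with TPM, but the median fell to 0.07 with a filter of 5 FPKM and 0.09 with the length trend removed, while PPAT and GART were called in every setting. In 143B the number went from 0 to 2 (PFAS and CAD) with 0.1 FPKM added and to 2 with CPM of the counts, and the median from 0.25 to 0.11 with a filter of 5 FPKM and to 0.37 with CPM. Between untreated lines, the median of -0.11 became -0.78 with the 5 FPKM filter, -0.39 centred on the median gene, -0.48 with TPM, -0.33 with TMM and -0.29 with DESeq2 size factors, and the number called fell from 6 to 3 at a threshold of 1. Share of called genes higher in JJ012 over 143B was 60.1%, but 48.6% centred, 49.6% with TMM and 47.8% with the length trend removed.

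Over all genes, the JJ012 count of 6036 became 3352 with the 5 FPKM filter and 2327 at a threshold of 1. The 143B count of 1801 became 2948 with 0.1 FPKM added, 3087 with CPM, 2733 with TPM, 547 with the 5 FPKM filter and 629 at a threshold of 1. The untreated count of 11626 became 6152 with the 5 FPKM filter. Protein-coding genes alone, a background chosen after seeing the data, gave 3.48% higher and 2.60% lower in 143B. Except where fewer genes were tested, the cause of these shifts was not tested.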
